A study of Mus musculus with 8 samples.

Results

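The genes described here are 43 genes of the lysosome and of autophagy, 24 of them in the autophagy machinery and 19 in the lysosome itself. Their open chromatin was followed by ATAC-seq, where a transposase, Tn5, cuts and tags DNA that is not covered by nucleosomes. A peak was given to a gene where its centre lay inside the gene's span in the GRCm38 annotation, or up to 50 kb outside it with that gene's end as the nearest end of any protein-coding gene. This gave 262 of the 134407 peaks, 154 for autophagy genes and 108 for lysosome genes, with at least 1 peak for each of the 43 genes. All peaks are 201 bp wide, so that values of different peaks compare on the same length. Of the 262 peaks, 253 had a mean value of at least 10 and were tested. The 9 others were too weak. The farthest peak that the rule took in at an outer flank lay 43791 bp from Atp6v1h (value 40.6 in control, 47.8 in paused samples), and the nearest one left out lay 60061 bp from Atg10 (value 13.0 and 7.18).

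The cells were mouse embryonic stem cells of the E14 line, wild type, kept on gelatin in medium with serum and LIF. The 4 control libraries came from the control condition. The cells of the 4 paused libraries had been given INK128, which inhibits the kinase mTOR, at 200 nM for 24 h, a treatment that slows growth and is used as a culture model of developmental pausing. Each library came from 50000 live cells, and nothing in the labels says whether the 4 libraries of a group came from separate cultures, so that p-values measure the spread between these libraries. Reads in peaks ranged from 4434037 to 21161767 per library, and the median member peak held between 22 and 105.5 reads. Control replicate 1 was the deepest. Of 10 genes fixed as markers of embryonic stem cells, 7 had a peak within 1 kb of a gene end, and Pou5f1, Tdgf1 and Dppa5a had none. The 7 were Sox2, Nanog, Zfp42, Esrrb, Klf4, Tfcp2l1 and Sall4. Their strongest such peaks had mean values from 13.9 at Klf4 to 243 at Sox2. Of 19 genes of other cell types, 10 had such a peak, from 33.5 at Ttr to 219 at Apoa1. Open gene ends alone thus do not tell the cell type apart.

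Autophagy wraps cytoplasm in a double membrane and delivers it to the lysosome for breakdown. Growth signals restrain it through mTOR complex 1, which phosphorylates the ULK kinase complex and so blocks the first step. The same complex keeps the transcription factor TFEB and its relatives in the cytoplasm. When mTOR is inhibited these factors can enter the nucleus, where they bind an extended E-box in the promoters of many lysosome and autophagy genes. ATAC-seq of a cell population cannot tell a site open in more cells from a site more open in each cell.

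The E-box sequences are shown first because they are the element through which TFEB is known to act on these promoters. RefSeq promoter windows (GRCm38.p6, 250 bases before to 50 after a start site) were found for 35 of the 43 genes, 37 windows in all. The E-box CACGTG, which reads the same on both strands, was in 13 of the 37 windows (35.1%), against 7.15% of all 32851 windows. The longer TCACGTGA, also its own reverse complement, was in 6 (16.2%, against 0.974% of all windows). GTCACGTG or its reverse complement CACGTGAC was in 9 (24.3%, against 2.25%). The full palindrome, in which GTCACGTG and CACGTGAC share the same CACGTG, was also searched. It was in 0 of the 37 windows, against 0.326% of all windows. At so low a background share, its absence from 37 windows does not show that it is rarer here. All the longer motifs contain CACGTG and overlap each other. Many lysosome genes were used to define this element in earlier work, so its share among them is a description. Stretches around the longer motifs follow, 5′ to 3′ on the gene's own strand and ending at most 20 bases after the start site, with the motifs in capitals.
Mcoln1: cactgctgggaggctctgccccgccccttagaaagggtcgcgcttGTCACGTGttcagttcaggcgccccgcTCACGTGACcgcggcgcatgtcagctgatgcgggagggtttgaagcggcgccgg
Lamp1: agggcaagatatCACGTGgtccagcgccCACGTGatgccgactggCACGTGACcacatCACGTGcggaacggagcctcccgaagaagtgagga
Ctsa: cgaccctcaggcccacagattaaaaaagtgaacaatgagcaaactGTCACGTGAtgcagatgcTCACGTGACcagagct
Ctsd: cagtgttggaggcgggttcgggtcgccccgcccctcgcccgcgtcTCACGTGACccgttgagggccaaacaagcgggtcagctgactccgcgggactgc
Atp6v0d1: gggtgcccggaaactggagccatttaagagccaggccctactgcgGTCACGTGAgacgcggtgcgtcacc
Atp6v1a: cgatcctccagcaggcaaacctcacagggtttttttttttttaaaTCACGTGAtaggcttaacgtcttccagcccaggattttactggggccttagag
Glb1: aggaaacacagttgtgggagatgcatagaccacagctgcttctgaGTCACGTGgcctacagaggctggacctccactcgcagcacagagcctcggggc
Atg3: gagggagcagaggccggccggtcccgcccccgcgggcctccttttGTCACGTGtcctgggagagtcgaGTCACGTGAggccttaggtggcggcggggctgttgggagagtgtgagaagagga
Atg14: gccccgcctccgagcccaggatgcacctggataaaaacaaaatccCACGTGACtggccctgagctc
Atg7: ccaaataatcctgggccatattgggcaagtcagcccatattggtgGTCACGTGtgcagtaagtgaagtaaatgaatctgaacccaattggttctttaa

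These stretches lie at chr8:3500401-3500526 (plus strand), chr8:13159088-13159180 (plus strand), chr2:164833714-164833792 (plus strand), chr7:142387873-142387971 (minus strand) and chr8:105566045-105566114 (minus strand) for Mcoln1, Lamp1, Ctsa, Ctsd and Atp6v0d1. For Atp6v1a, Glb1, Atg3, Atg14 and Atg7 they lie at chr16:44139339-44139436 (minus strand), chr9:114400983-114401080 (plus strand), chr16:45158688-45158809 (plus strand), chr14:47568415-47568480 (minus strand) and chr6:114670917-114671014 (plus strand). Lamp1, a main protein of the lysosomal membrane, had 4 E-boxes in its window, all just beside its gene-end peak. Mcoln1, the calcium channel of the lysosome, had 2, and both lay under its gene-end peak. The same was true of both E-boxes of Atg3 and of the single ones of Atg14, Glb1, Atp6v1a and Atg5. In Ctsd 1 of 2 E-boxes lay under the peak. No member peak covered the single E-boxes of Atp6v0d1, Gaa and Ctsl. The E-boxes of Ctsa belong to a start site 797 bp from the centre of the nearest peak, and the start site of the Atg7 window lies 3834 bp from the nearest peak centre. That Atg7 window begins at position 114670846, inside the gene and away from its end at 114643127.

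Gene-end peaks, centred no more than 1 kb from the start or the end of the gene, were among the strongest in the table. There were 54 of them at 42 of the 43 genes, and Atg7 had none. The median gene-end peak of these genes had a value of 199.7 and stood at percentile 94.3 of all peaks by strength, against percentile 52.1 for the 208 other member peaks, called distal here. Of the 53 gene-end peaks tested, 2 rose and 0 fell in paused cells at a limma-trend adjusted p under 0.05, which is what "called" means in this text. Among all 16169 gene-end peaks tested, 10.4% were called higher and 1.25% lower. The median log2 change of the members' gene-end peaks was 0.20, with 48 of 53 above 0. That of all gene-end peaks was 0.17, and that of all peaks of any kind 0.10. Over gene-end peaks with mean values from 100 up, the median was 0.20 both for the 40 of these genes and for all 9618. At that strength 2 of the 40 were called higher, against 12.7% of the 9618, a difference that was not tested. With any 1 library left out, the count called among the 53 lay between 1 and 6. It stayed at 2 only without control replicate 4. It was 0 in DESeq2 and after loess correction, and under loess correction the median of the members' gene ends was -0.00178, so that this median depends on the scaling.

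The 8 strongest gene-end peaks show what this looks like in single libraries. At the start of Uvrag (chr7:99141149-99141349), which codes for a subunit of a Vps34 lipid kinase complex, values were 371, 338, 461 and 431 in the control libraries and 400.3, 413, 569 and 489 in the paused ones. At Rb1cc1 (chr1:6214526-6214726), the scaffold of the ULK complex, they were 288, 398, 374 and 341 in the control libraries and 392, 397, 521 and 429 in the paused ones. In both peaks the ranges of the groups overlapped, and the changes of 0.22 and 0.31 were not called (limma-trend adjusted p = 0.186 and 0.0514). Npc1 (chr18:12236384-12236584), the cholesterol exporter of the lysosomal membrane, read 331, 324, 354 and 353 in the control libraries and 403, 369, 449.96 and 410.1 in the paused ones. All 4 paused libraries lay above all 4 control libraries there, with a change of 0.26 that was not called (limma-trend adjusted p = 0.0788). At Gabarapl2 (chr8:111940554-111940754), an Atg8 family protein, the values were 343, 343, 391 and 416 in the control libraries and 374, 325, 363 and 405 in the paused ones. The groups overlapped over most of their range, and the change was -0.02, with a 95% interval from -0.24 to 0.19. The Rb1cc1 peak was called in 6 of 19 alternatives, among them without control replicate 2 and without paused replicate 1. The others of the 8 were Atg9a (0.16), Atg3 (0.08), Npc2 (0.18) and Ctsl (0.28), none of them called with all libraries. Ctsl was called in 2 of 19 alternatives, 1 of them without paused replicate 1.

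Gene ends of the genes with E-boxes gave values of the same kind. At Mcoln1 (chr8:3500323-3500523) the libraries read 183, 217, 209.97 and 237 in the control libraries and 235, 235, 278 and 244 in the paused ones, a change of 0.23. At Lamp1 (chr8:13159175-13159375) they read 139, 209, 142 and 148 in the control libraries and 208, 199, 159.8 and 180.4 in the paused ones, a change of 0.24. At Atp6v1a (chr16:44139305-44139505), a subunit of the proton pump whose peak covers a TCACGTGA, they read 197, 182, 163 and 201 in the control libraries and 233, 175, 149 and 175 in the paused ones, a change of -0.03. The groups overlapped at all 3, and none was called (limma-trend adjusted p = 0.166, 0.216 and 0.885). At Lamp1 control replicate 2 stood above the other 3, and without it the change was 0.37 and was called (limma-trend adjusted p = 0.0435). This was the only 1 of 19 alternatives to call the Lamp1 peak, and over the 19 its change ran from 0.03 to 0.37. The strongest gene-end peak of each of the 42 genes changed by between -0.05 at Gabarapl1 and 0.49 at Ulk2. Only Gabarapl1, Atp6v1a and Gabarapl2 were below 0. Besides Npc1 and Hexa, the paused values lay above all control values at Wipi2 (0.26), Atg12 (0.26) and Gabarap (0.39), none of these 3 called. These 5 are of 53 member gene ends, and 14.7% of all 16169 gene-end peaks had paused values above all control values. The weakest of the 42 was that of Atg13, with a mean of 32.6 in control and 40.8 in paused samples. This peak lies 36779 bp from the RefSeq start site of Atg13, and the gene-end peak of Atg9b lies 8571 bp from that of Atg9b.

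**Figure D1:**
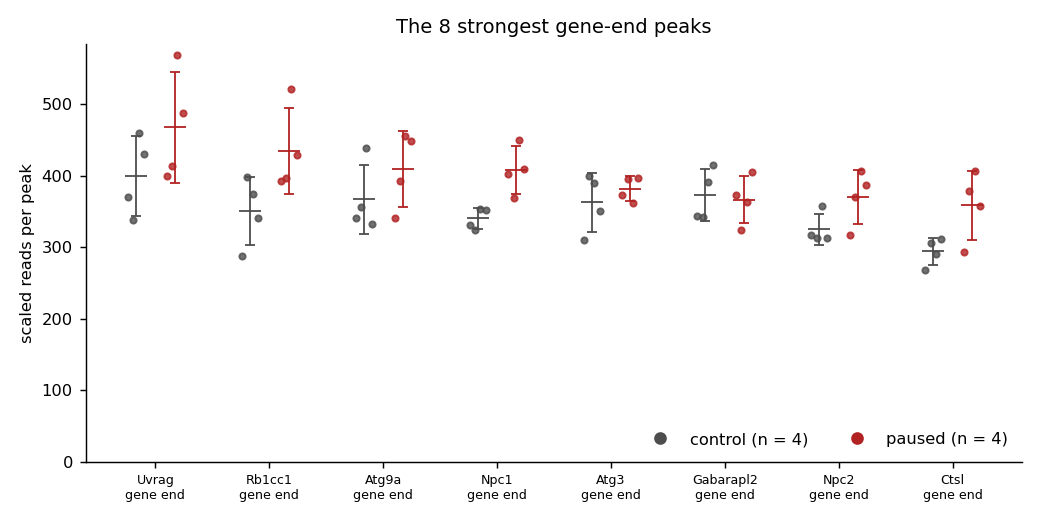
Scaled reads per peak in each library at the 8 strongest gene-end peaks of the lysosome and autophagy genes (points; crossbars and whiskers are mean and SD, n = 4 per group). Control and paused values overlap in 7 of the 8 peaks and are apart at Npc1.

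The 2 gene-end peaks that rose were at Ulk2 and Hexa. Ulk2, a kinase of the initiation complex and a close relative of Ulk1, had values of 200.5, 289, 261 and 220.4 in the control libraries and 389, 287, 382 and 308 in the paused ones at its start (chr11:61854907-61855107). The mean went from 243 ± 39.8 to 341 ± 51.4 (control to paused, SD, n = 4), a log2 change of 0.49 with SE 0.12 and limma-trend adjusted p = 0.00424. The second paused library lay just below the highest control library, so the groups overlapped by 1 library. Hexa codes for a subunit of the enzyme that degrades GM2 ganglioside. Its peak (chr9:59539507-59539707) read 168, 179, 156 and 175 in the control libraries and 195, 219, 242 and 220.3 in the paused ones, and every paused library lay above every control library (a log2 change of 0.37 with SE 0.11 and limma-trend adjusted p = 0.025). An end of Tmem202 also lies within 1 kb of this peak, so the peak cannot be given to Hexa alone. Other gene-end peaks are shared too: the nearest end is that of Tmppe at the Glb1 peak and of Ap3s1 at the Atg12 peak. The Atg9b peak lies outside Atg9b and inside the span of another gene. The Ulk2 call was lost in DESeq2 and after loess correction, and the Hexa call in 10 of 19 alternatives. The 2 promoter windows are shown because these were the gene ends that were called, and neither holds an E-box. They lie at chr11:61855073-61855342 (minus strand) and chr9:59539290-59539559 (plus strand).
Ulk2: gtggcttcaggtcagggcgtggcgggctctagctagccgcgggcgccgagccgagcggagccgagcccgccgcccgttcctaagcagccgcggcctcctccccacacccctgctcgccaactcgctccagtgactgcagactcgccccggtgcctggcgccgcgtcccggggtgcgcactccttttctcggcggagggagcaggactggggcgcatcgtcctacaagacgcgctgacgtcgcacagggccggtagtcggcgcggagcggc
Hexa: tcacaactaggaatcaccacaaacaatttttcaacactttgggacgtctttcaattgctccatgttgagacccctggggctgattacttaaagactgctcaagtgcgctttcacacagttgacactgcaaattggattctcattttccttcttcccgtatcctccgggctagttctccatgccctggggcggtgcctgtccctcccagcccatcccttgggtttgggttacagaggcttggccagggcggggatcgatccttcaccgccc

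The calls at gene ends were set beside the E-boxes. Of the 34 member windows with a peak within 1 kb of the start site, 12 held CACGTG. None of the nearest peaks of these 12 was called, and their median log2 change was 0.19. Of the 22 without it, 2 were called, with a median of 0.19. Among all 17800 windows with such a peak, 12.7% of those with CACGTG and 11.06% of those without had a nearest peak called higher. These are counts of windows, and some windows share a peak. The difference between the members with and without the motif was not tested.

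Away from the gene ends, 200 distal member peaks were tested, and 23 of them rose and 5 fell. Of all 111233 distal peaks, 11.0% were called higher and 3.15% lower, so the shares of 11.5% and 2.50% are near the background. Over all 253 tested member peaks, 25 rose and 5 fell, in 18 of the 43 genes, against 11.0% higher and 2.91% lower of the 127402 peaks tested in all. The groups did not overlap in 35 peaks with higher and 8 with lower paused values (13.0% and 4.36% of all tested peaks). The count of 5 falls was 1 without control replicate 1 or paused replicate 3, 2 without control replicate 3 and 3 without control replicate 2. The split of 25 higher and 5 lower depended on the scaling: it was 17 and 13 in edgeR with TMM, 16 and 10 in limma-trend after TMM rescaling, 12 and 12 with scaling to the total in peaks, and 11 and 7 after loess correction. DESeq2 called 9 and 1. Among distal peaks whose mean value reached 50, 16 of 60 rose and 0 fell, against 21.02% and 1.72% of all such peaks. Among those under 30, 0 of 89 rose and 4 fell, against 4.48% and 3.99%. By the FDR in the authors' deposited table, 23 of the 262 peaks are under 0.05, 21 higher and 2 lower, and all 23 were also called here.

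**Figure D2:**
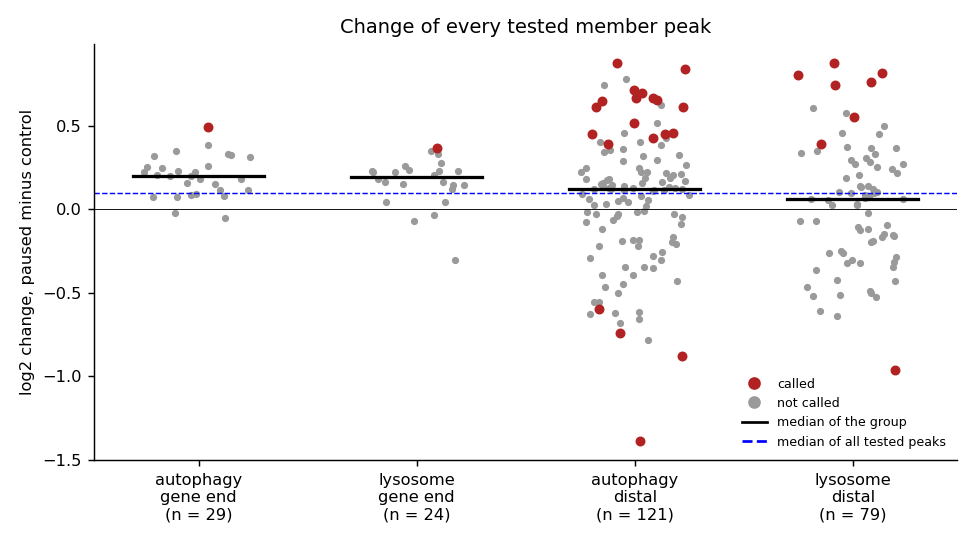
Log2 change of each of the 253 tested member peaks, split by gene end or distal and by autophagy or lysosome (red, called; grey, not called; black bar, median of the group; dashed line, median of all tested peaks at 0.10). Gene-end changes lie between -0.31 and 0.49, most of them near the medians of 0.20 and 0.19, and the distal peaks spread from -1.39 to 0.88.

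The initiation complex receives the signal from mTOR. Of its 21 tested peaks, 4 rose (19.0%) and 1 fell (4.76%), against 11.0% and 2.91% of all tested peaks. These counts and those of the groups below rest on few peaks, and no difference from the shares over all peaks was tested. Inside Ulk2 a distal peak (chr11:61809870-61810070, 34372 bp from the nearer end of the gene) read 95.8, 94.3, 115 and 120.5 in the control libraries and 165, 191, 164 and 157 in the paused ones. The groups were well apart (a log2 change of 0.67 with SE 0.13 and limma-trend adjusted p = 0.000311). A weaker peak in the same gene (chr11:61782697-61782897) went the other way, with 48.4, 46.6, 35.6 and 51.4 in the control libraries and 31.1, 29.97, 26.4 and 30.5 in the paused ones (a log2 change of -0.60 with SE 0.19 and limma-trend adjusted p = 0.03). The call of the fall was lost in 6 of 18 alternatives. So 1 gene held 2 called rises, its start included, and 1 called fall. At Ulk1, the kinase that mTOR complex 1 phosphorylates, 2 peaks rose. The peak 4784 bp outside the gene (chr5:110814804-110815004) went from 36.5 ± 5.62 to 57.8 ± 4.25 (control to paused, SD, n = 4), a log2 change of 0.66, and the one inside (chr5:110788805-110789005) from 105 ± 13.1 to 143 ± 15.7 (control to paused, SD, n = 4), a change of 0.45 (limma-trend adjusted p = 0.00842 and 0.0157). No peak of Atg13, Atg101 or Rb1cc1, the partners of the ULK kinases, was called. Both Ulk1 calls were lost in edgeR with TMM, in DESeq2 and with scaling to the total in peaks, and the inner one also after TMM rescaling, after loess correction and without control replicate 4 or paused replicate 1 (adjusted p up to 0.206 and 0.228).

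The Vps34 kinase makes the lipid PI3P, and Becn1, Atg14 and Uvrag code for subunits of its complexes, not all of them of the same one. Of their 32 tested peaks 5 rose and 1 fell. The peak 4490 bp upstream of Atg14 (chr14:47572824-47573024) is one of the strongest distal peaks of these genes and read 118, 135, 157 and 141 in the control libraries and 185, 233, 239 and 254 in the paused ones. Every paused library was above every control library (a log2 change of 0.72 with SE 0.12 and limma-trend adjusted p = 9.89e-05). The peak 5643 bp outside Becn1 (chr11:101307829-101308029) read 61.9, 53.8, 66.0 and 54.4 in the control libraries and 94.6, 101, 96.2 and 91.4 in the paused ones, again without overlap (a log2 change of 0.69 with SE 0.14 and limma-trend adjusted p = 0.000851). At Uvrag the peak 14197 bp outside the gene (chr7:98872445-98872645) had 47.4, 39.4, 40.6 and 41.1 in the control libraries and 73.8, 61.5, 79.1 and 103 in the paused ones (a log2 change of 0.88 with SE 0.17 and limma-trend adjusted p = 0.000337). Other genes end nearby too: Psme3 lies 8284 bp from the Becn1 peak and Wnt11 17798 bp from this Uvrag peak. Uvrag had the most peaks of the 43 genes, 20. Among them 2 others rose, chr7:99095333-99095533 by 0.67 and chr7:98887910-98888110 by 0.61, and 1 weak peak, chr7:98876974-98877174, fell by 0.88 on the log2 scale (limma-trend adjusted p = 0.0184, 0.0303 and 0.0347). These 3 calls were lost in 5, 8 and 6 of 18 alternatives. The falling peak lies between the gene and the rising one farther out.

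The WIPI proteins bind PI3P. Wipi2 had 2 called rises among its 9 peaks, chr5:142667991-142668191 (0.43) and chr5:142640175-142640375 (0.46), with limma-trend adjusted p of 0.0132 and 0.04. The first call was lost in 5 and the second in 12 of 19 alternatives (adjusted p up to 0.213 and 0.387). Wipi1, with 8 peaks, had none.

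The conjugation enzymes attach Atg12 to Atg5 and lipid to the Atg8 proteins, and 4 of their 51 tested peaks rose and 1 fell. The clearest change of all 253 peaks by adjusted p was inside Atg10, the enzyme that joins Atg12 to Atg5. That peak (chr13:91217745-91217945, 6880 bp from the gene's end) read 68.1, 62.1, 67.7 and 67.6 in the control libraries and 119.97, 131, 112 and 116 in the paused ones. The control values were close together and the lowest paused value was well above them (a log2 change of 0.84 with SE 0.13 and limma-trend adjusted p = 3.92e-05). Downstream of Atg5 3 peaks rose in the stretch toward Prdm1. The nearest to Atg5 (chr10:44368696-44368896) read 67.1, 68.1, 54.2 and 66.1 in the control libraries and 102, 106, 99.3 and 94.9 in the paused ones (a log2 change of 0.65 with SE 0.14 and limma-trend adjusted p = 0.00149). Next to it, chr10:44370777-44370977 rose by 0.52, and 27801 bp from the gene the strong peak chr10:44392000-44392200 rose by 0.45, from 229 ± 22.2 to 316 ± 50.3 (control to paused, SD, n = 4). The last of these lies 45074 bp from the nearest end of Prdm1. The 1 fall was at Atg16l1 (chr1:87790980-87791180), from 29.7 ± 4.21 to 18.0 ± 5.73 (control to paused, SD, n = 4), a change of -0.74 (limma-trend adjusted p = 0.0427). This call was lost in 6 of 18 alternatives. No peak of Atg3, Atg7 or Atg12 was called.

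The Atg8 family proteins coat the autophagic membrane, and 2 of their 17 tested peaks rose. At Gabarapl2 a peak inside the gene (chr8:111943624-111943824) read 67.8, 82.4, 76.2 and 76.4 in the control libraries and 98.0, 139, 91.5 and 144 in the paused ones (a log2 change of 0.61 with SE 0.15 and limma-trend adjusted p = 0.00408). The paused libraries fell into a higher and a lower pair, all 4 above the controls. This peak stands 3021 bp from the nearer end of the gene, whose own peak is the one described above with a change of -0.02. At Map1lc3b a peak outside the gene and inside the span of Zcchc14 (chr8:121602960-121603160) rose by 0.39 (limma-trend adjusted p = 0.0436), a call lost in 9 of 19 alternatives. Map1lc3a, Gabarap and Gabarapl1 had no called peak. Atg9a and Atg9b code for the scramblases that bring membrane. Near Atg9b a weak peak inside the span of Nos3 (chr5:24380054-24380254) fell, with 16.9, 16.7, 11.8 and 17.6 in the control libraries and 3.46, 7.89, 6.21 and 4.69 in the paused ones (a log2 change of -1.39 with SE 0.38 and limma-trend adjusted p = 0.011). These values rest on few reads, since 3 reads are worth between 1.04 and 5.08 depending on the library.

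**Figure D3:**
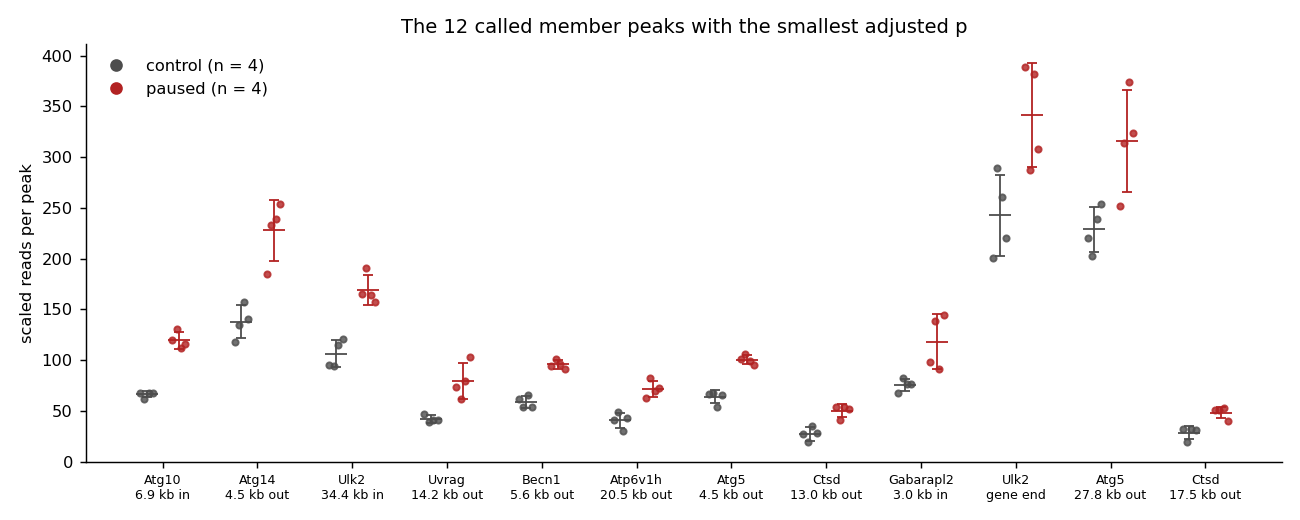
Scaled reads per peak in each library for the 12 called member peaks with the smallest adjusted p (points; crossbars and whiskers are mean and SD, n = 4 per group); labels give the distance to the nearer gene end, inside (in) or outside (out) the gene. All 12 rose, and the groups overlap at the Ulk2 gene end and the outer Atg5 peak.

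In the lysosome list 8 of 103 tested peaks rose and 1 fell, against 17 and 4 of 150 in the autophagy list. The shares called higher were 7.77% and 11.3%, and the background of 11.0% lies between them. The median log2 change was 0.11 for lysosome and 0.13 for autophagy peaks. At the gene ends both medians were near 0.20, at 0.19 and 0.20, and at distal peaks they were 0.06 and 0.12. No test of the difference between the lists was made, since peaks of a gene are not independent.

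The vacuolar proton pump acidifies the lysosome, and 3 of the 22 tested peaks of its 4 genes rose, all at Atp6v1h. The peak 20486 bp outside the gene (chr1:5183599-5183799) read 40.8, 49.0, 30.5 and 42.6 in the control libraries and 62.3, 82.0, 69.8 and 72.6 in the paused ones (a log2 change of 0.81 with SE 0.17 and limma-trend adjusted p = 0.000967). The groups were apart there. The 2 calls inside the gene were lost in 3 of 19 and 5 of 18 alternatives. These peaks, chr1:5158783-5158983 and chr1:5137162-5137362, rose by 0.75 and 0.80 with overlapping groups (limma-trend adjusted p = 0.00839 and 0.0143). None of the peaks of Atp6v1a, Atp6v0a1 and Atp6v0d1 was called.

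Of the 19 tested peaks of the proteases, 2 rose, both upstream of Ctsd, the main aspartic protease of the lysosome. They lie 12963 and 17540 bp from its start. The nearer (chr7:142400690-142400890) read 27.0, 19.1, 35.6 and 27.9 in the control libraries and 54.2, 41.0, 54.3 and 51.5 in the paused ones (a log2 change of 0.88 with SE 0.20 and limma-trend adjusted p = 0.00253). The other (chr7:142405267-142405467) read 32.1, 19.1, 32.2 and 30.9 in the control libraries and 50.8, 50.5, 52.8 and 39.8 in the paused ones (a log2 change of 0.76 with SE 0.20 and limma-trend adjusted p = 0.00795). Control replicate 2 was lowest at both. The gene-end peak of Ctsd, which covers an E-box, changed by 0.17 and was not called (limma-trend adjusted p = 0.309). No peak of Ctsa, Ctsb, Ctsl or Ctsz was called.

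Among the glycosidases, which remove sugars from glycolipids and glycoproteins, 2 of 31 tested peaks rose, that of Hexa and 1 outside Neu1 (chr17:34941758-34941958, 0.39, limma-trend adjusted p = 0.0394). The Neu1 call was lost in 12 of 19 alternatives (adjusted p up to 0.399). Glb1, the lysosomal beta-galactosidase, had 18 peaks and no call, and Gaa, which degrades glycogen, had 4 and no call. Psap, the precursor of the saposins that present lipids to these enzymes, had 1 rise inside the gene (chr10:60299876-60300076, 0.55, limma-trend adjusted p = 0.0477). That call was lost in 14 of 18 alternatives, 7 of them with 1 library left out. The peak lies 2624 bp from the nearer end of Psap and 2772 bp from an end of Cdh23. The genes of lipid export and hydrolysis, Npc1, Npc2 and Lipa, had 20 tested peaks with no rise and 1 fall, at a weak peak inside Npc1 (chr18:12225663-12225863), from 19.8 ± 4.40 to 9.86 ± 3.28 (control to paused, SD, n = 4), a change of -0.96 (limma-trend adjusted p = 0.0355), lost in 8 of 18 alternatives. Lamp1 had 1 peak and Mcoln1 2, none called with all 8 libraries.

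To give 1 value per gene, the values of all peaks of a gene were added in each library and tested over all 18459 genes in the same way. The sums rose for 20 of the 43 genes and fell for 0. Over all genes 30.1% rose and 1.38% fell, and the median log2 change was 0.15, against 0.16 for these 43. By list, 12 of 24 autophagy and 8 of 19 lysosome genes rose. The highest change was at Ulk2, whose 4 libraries summed to 372, 461, 433 and 426 in control and 618, 541, 607 and 519 in paused cells. Its mean went from 423 ± 37.3 to 571 ± 48.7 (control to paused, SD, n = 4), by 0.43 on the log2 scale with limma-trend adjusted p = 0.000242. Wipi2 went from 641 ± 28.2 to 793 ± 21.9 (control to paused, SD, n = 4), by 0.31 on the log2 scale with limma-trend adjusted p = 0.000618. Atg14 went from 677 ± 20.6 to 835 ± 54.8 (control to paused, SD, n = 4), by 0.30 on the log2 scale with limma-trend adjusted p = 0.000879. In these 3 genes all paused libraries were above all control libraries. Atp6v1h had the largest rise among lysosome genes, from 405 ± 36.2 to 508 ± 48.6 (control to paused, SD, n = 4), by 0.33 on the log2 scale with limma-trend adjusted p = 0.00405. Rb1cc1, which had no called peak, went from 497 ± 49.4 to 616 ± 64.9 (control to paused, SD, n = 4), by 0.31 on the log2 scale with limma-trend adjusted p = 0.005. The others of the 20 were Gabarap, Becn1, Atg12, Ulk1, Atg5, Atg101, Map1lc3b and Atg10 of the autophagy list and Psap, Hexa, Ctsl, Npc1, Ctsd, Neu1 and Atp6v0a1 of the lysosome list. Gabarap has 1 peak, so its sum is the gene-end value that was not called among the peaks. The limma-trend adjusted p was 0.0419 over genes and 0.0724 over peaks. The 23 sums that were not called ran from -0.11 at Atp6v1a to 0.24 at Lamp1. Glb1, with 18 peaks, went from 767 ± 11.1 to 766 ± 37.1 (control to paused, SD, n = 4), by -0.00202 on the log2 scale with limma-trend adjusted p = 0.982, and with a 95% interval of the change from -0.12 to 0.12. The count of 20 fell to 3 after TMM rescaling and to 1, Ulk2, with scaling to the total in peaks, and it was 13 without control replicate 1, 12 without paused replicate 3 and 11 without paused replicate 4.

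**Figure D4:**
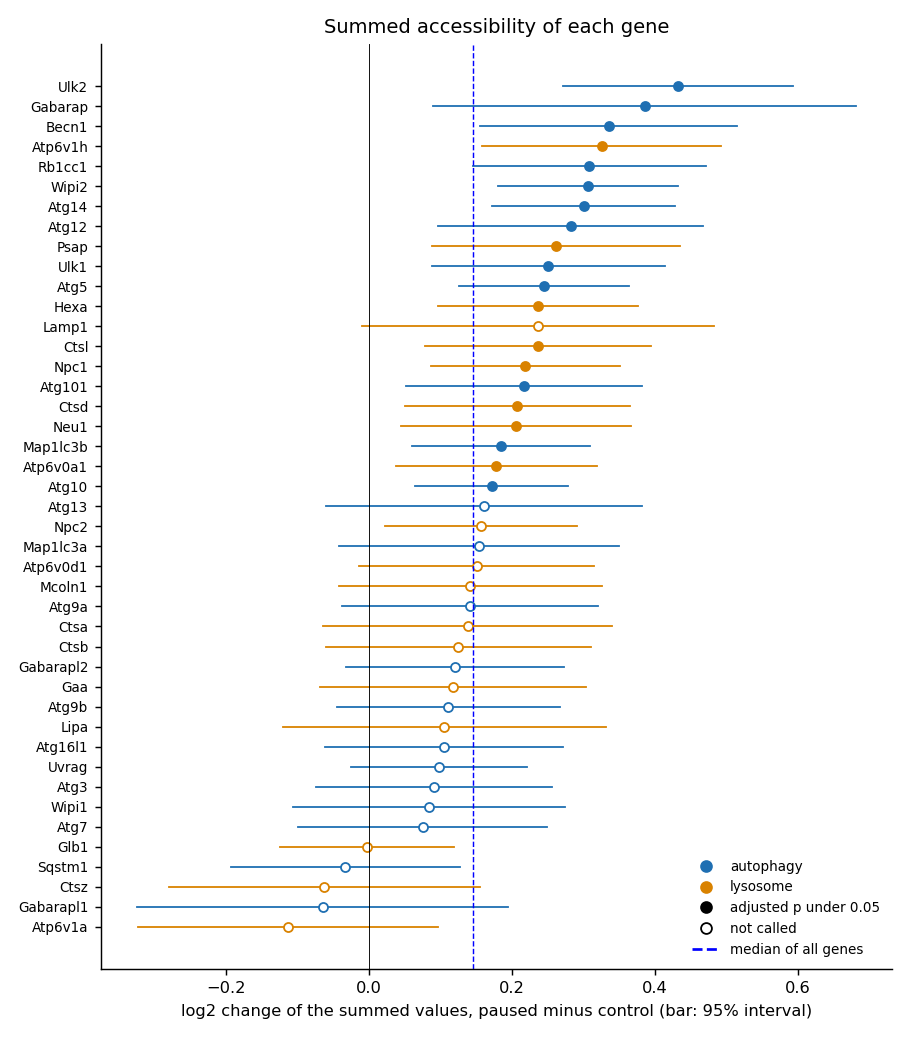
Log2 change of the summed values of each of the 43 genes with its 95% interval (filled, adjusted p under 0.05; blue, autophagy; orange, lysosome; dashed line, median of all genes at 0.15). Ulk2 stands highest at 0.43, and 20 genes are filled.

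Gene ends and distal peaks were then compared within each gene, as the log2 ratio of the 2 sums in each library. This ratio does not depend on a scaling factor per library, but a shift that differs with peak strength does not cancel in it. Among all distal peaks the median log2 change was -0.04 at mean values under 30 and 0.18 from 50 up. The ratio was not fitted after loess correction. Over 12125 genes with both kinds of peak, the ratio rose in 1.60% and fell in 0.800%. Of the 39 members with both, 1 was called, Sqstm1, and 10 had an unadjusted limma-trend p under 0.05, against 20.9% of all 12125 genes. Sqstm1 codes for p62, the receptor that ties ubiquitinated cargo to the autophagic membrane. The summed gene ends of Sqstm1 went from 198 ± 19.0 to 228 ± 10.3, and its 3 distal peaks from 159 ± 6.03 to 120.4 ± 10.4 (SD, n = 4). The gene ends thus gained 0.61 on the distal peaks (SE 0.14, limma-trend adjusted p = 0.0383), while none of its 5 peaks was called by itself. The call was lost without control replicate 1 or 4 and without paused replicate 1, 3 or 4, with adjusted p up to 0.105. Of the 10 genes with unadjusted p under 0.05, 7 had a higher ratio, Sqstm1 included, as had 1774 of 2537 among all genes. After Sqstm1 came Ctsb (0.53), Mcoln1 (0.49) and Wipi1 (0.48), with limma-trend adjusted p of 0.142, 0.192 and 0.117. The ratio pointed the other way at Becn1 (-0.49), Gabarapl2 (-0.48) and Atp6v1h (-0.30), with limma-trend adjusted p of 0.0914, 0.129 and 0.217. The median ratio change was -0.03 for 21 autophagy genes and 0.10 for 18 lysosome genes, against 0.08 for all genes.

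**Figure D5:**
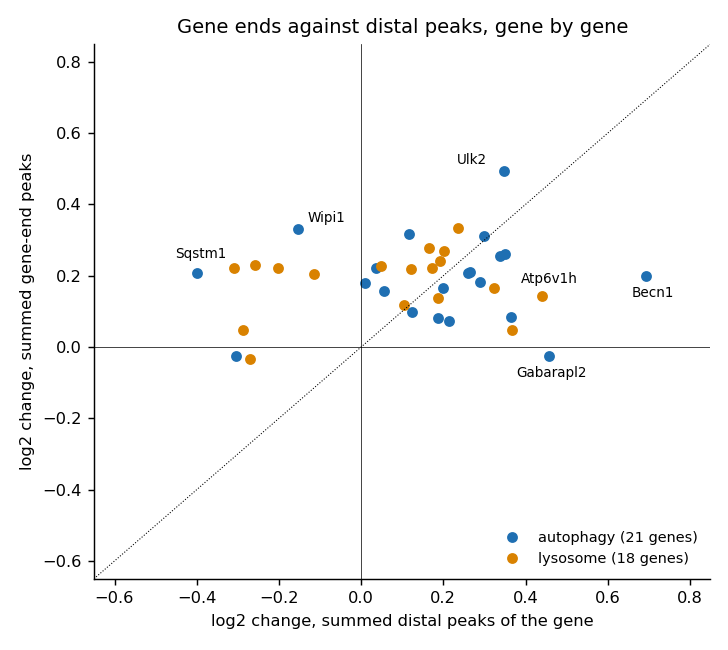
Log2 change of the summed gene-end peaks (vertical axis) against that of the summed distal peaks (horizontal axis) for the 39 genes with both (blue, autophagy; orange, lysosome; dotted line, equal change). Gene-end changes lie between -0.03 and 0.49 and distal changes between -0.40 and 0.69, with Sqstm1 at the left and Becn1 at the right.

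Set beside the members, a wider list of 87 other lysosome and autophagy genes gave 551 tested peaks at 86 genes, of which 58 rose and 19 fell, 10.5% and 3.45%. Their median log2 change was 0.07. The smallest adjusted p among the rises were at distal peaks of Ostm1, a partner of the lysosomal chloride exchanger (chr10:42646452-42646652, 0.91), and Scarb2, a lysosomal membrane protein (chr5:92498346-92498546, 0.82). Among the falls they were at Pik3c3, the Vps34 kinase itself (chr18:30317988-30318188, -1.40), and Zfyve1 (chr12:83549242-83549442, -0.89). The limma-trend adjusted p of these 4 peaks was 4.22e-06, 7.03e-05, 8.98e-06 and 8.16e-05. At the Pik3c3 peak the libraries read 64.7, 57.3, 91.4 and 103 in the control libraries and 42.7, 25.2, 20.2 and 30.5 in the paused ones, without overlap. Of the gene sums in the wider list, 14 of 50 lysosome and 13 of 36 autophagy genes rose and 0 fell, against 30.1% and 1.38% of all genes.

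Of the 30 called member peaks, 8 kept their call in every alternative fit that included them, up to 19 for a peak, and 0 turned direction. The share of all called peaks in the series that would do so was not computed, so this count has no background beside it. The 8 are the distal peaks described for Atg10, Atg14, Ulk2 (the rise), Uvrag (14197 bp outside), Becn1, Atp6v1h (20486 bp outside), Atg5 (4497 bp outside) and Ctsd (12963 bp outside). The other 22 lost their call in at least 1 alternative, 11 of them in more than 5. All 8 rose, and in all 8 the groups did not overlap, as was so for 23 of the 30 called peaks. Keeping a call with any 1 library left out already favours groups that are apart. The distance to the nearer gene end ran from 4490 to 34372 bp.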

How the data were processed

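ATAC-seq values of 4 control and 4 paused libraries were analysed. Per the submitters' processing notes, the tools were FastQC, Trim Galore, Bowtie2 2.4.1, MACS3 3.0.3 and DiffBind 3.16.0 with genome mm10; read filters and any Tn5 offset are not given in the sources used here. In the deposited table each library has a signal for every peak, its reads divided by that library's single factor and rounded to 2 decimals. This was read from the values, of which 100% in each library were whole multiples of 1 step within 0.005. The authors also deposited log2 means and folds and the p-values and FDR of their own comparison, used only where their table is named. No library column stayed unused.

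The main test was limma-trend (limma 3.58.1, R 4.3.3) on log2(value + 1) over the 127402 peaks whose mean value reached 10, and p-values had Benjamini-Hochberg adjustment over all of them. On that scale, fold changes of weak peaks come out too small. On the recovered whole reads, edgeR 4.0.16 with TMM called 16142 peaks, edgeR with the deposited scaling 21054 and DESeq2 1.42.0 5794, against 17660 in the main test. Gene sums and the ratio of gene ends to distal peaks were fitted in the same way over all protein-coding genes. The fits were tested on simulated reads. The members and gene lists were chosen with earlier results of these data known. Every member gene is accounted for, and peaks named are the strongest gene-end peaks and every called peak. Values of each library are plotted for the 12 called peaks with the smallest adjusted p and the 8 strongest gene ends. They are printed for a part of these and for the peaks a sentence turns on. Promoters come from RefSeq (GRCm38.p6), whose windows cover 35 of the genes, and gene ends are either end of the span. Of 262 member peaks, 21 that lie inside the gene have another end nearer and 7 lie in more than 1 gene span.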

Additional observations from a re-analysis of the deposited data

Results flagged for a closer look

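The values of each group of 4 libraries were examined at 74 peaks, namely the 30 called member peaks, the strongest gene-end peak of each of the other genes and the 4 peaks named from the wider list, and in the sums of the 40 genes with more than 1 peak. In 13 of these 228 groups 1 library lay far from the other 3 by Dixon's criterion at the 95% level. Chance gives about 1 such group in 20.

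Control replicate 2 was low at the Atg10 peak inside the gene (62.1, the others 67.6 to 68.1) and at the Ctsd peak 17540 bp from the gene (19.1, the others 30.9 to 32.2), and high at the Lamp1 gene end (209, the others 139 to 148). Control replicate 3 was low at the Atg5 peak 4497 bp outside the gene (54.2, the others 66.1 to 68.1), at the weak peak near Atg9b (11.8, the others 16.7 to 17.6) and at the Gabarap gene end (52.5, the others 71.6 to 75.2). The same library was high at the gene ends of Npc2 (357, the others 312.9 to 317.7), Neu1 (305, the others 250.8 to 257.2) and Atg101 (293, the others 236 to 244). Control replicate 1 was high at the Ulk1 peak outside the gene (44.9, the others 33.4 to 33.9) and in the Ctsa sum (207, the others 192.5 to 194.7). Among paused libraries, replicate 4 was high at the Zfyve1 peak (60.9, the others up to 47.3) and replicate 2 in the Glb1 sum (822, the others 744 to 749.8).

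The Atg10, Atg5, Ctsd, Atg9b and Ulk1 peaks were still called without the library that stood apart. The Lamp1 gene end, not called with all libraries, was called without control replicate 2 and in no other alternative. The call of the Gabarap sum, which is its 1 peak, was lost without control replicate 3 (adjusted p = 0.159), and also without control replicate 1 or paused replicate 2, 3 or 4 and under both other scalings.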

How the results depend on the processing

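Under the deposited scaling all tested peaks together had a median log2 change of 0.10. It was -0.01 after TMM rescaling, in edgeR with TMM and in DESeq2, -0.05 with scaling to the total in peaks and -0.01 after loess correction, so small changes of gene ends lie within what the scaling moves. Against 25 higher peaks, DESeq2 called 9, TMM rescaling 16, total scaling 12 and loess correction 11, with 20 to 27 when 1 library was left out. Against 5 lower peaks, edgeR with TMM called 13, DESeq2 1, TMM rescaling 10, total scaling 12 and a minimum mean of 50 called 2, with 1 to 6 when 1 library was left out. Against 2 gene-end peaks, edgeR with TMM, TMM rescaling and total scaling called 1 each, edgeR with the deposited scaling 4, DESeq2 and loess correction 0, gene ends of 2 kb 5, and 1 library left out 1 to 6. Against 20 gene sums, TMM rescaling gave 3, total scaling 1, and 1 library left out 11 to 20. The 1 gene with a change of its ends against its distal peaks became 0 to 1 with 1 library left out.

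A fit with the replicate number as a block called 35 higher and 7 lower member peaks, 6 gene ends, 21 gene sums and 0 ends against distal peaks, and 21994 against 17660 peaks in all. The replicate numbers were not taken as a pairing, since the deviations of same-numbered libraries correlated by 0.079, 0.0358, 0.133 and 0.0395, and not every library correlated best with its own number (control replicate 2 did not).

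No called peak changed direction in any of up to 19 alternatives, and 22 of the 30 lost their call in at least 1. The directions that reversed were of gene-end peaks not called, and the cause was not tested. After loess correction the log2 changes were Atg9a -0.0518, Atg3 -0.128, Npc2 -0.0260, Atg9b -0.0287, Atg10 -0.135, Ctsd -0.0430, Atg5 -0.00178, Atg101 -0.00930, Atg16l1 -0.118, Glb1 -0.00219, Map1lc3a -0.0539, Map1lc3b -0.0892, Becn1 -0.00610, Atp6v1h -0.0624, Atg14 -0.121, Gaa -0.0623, Ulk1 -0.0194, Lipa -0.155, Ctsa -0.0400 and Ctsz -0.146. In edgeR with TMM the log2 changes were Atg3 -0.0167, Atg10 -0.0319, Map1lc3b -0.00202, Atg14 -0.0419, Lipa -0.0181 and Ctsz -0.0752. In DESeq2 the log2 changes were Atg3 -0.0192, Atg10 -0.0313, Atg16l1 -0.00301, Map1lc3b -0.00136, Atg14 -0.0394, Lipa -0.0316 and Ctsz -0.0706. After TMM rescaling the log2 changes were Atg3 -0.0279, Atg10 -0.0355, Atg16l1 -0.0185, Atg14 -0.0239, Lipa -0.0613 and Ctsz -0.0611. With total scaling the log2 changes were Atg3 -0.0759, Atg10 -0.0836, Atg16l1 -0.0665, Map1lc3a -0.00271, Map1lc3b -0.0388, Atp6v1h -0.0133, Atg14 -0.0718, Gaa -0.0133, Lipa -0.109 and Ctsz -0.109. With 1 library left out, the Gabarapl2 gene end ran from -0.0741 to 0.0319 around -0.0247, with the sign turned without control replicate 4 and without paused replicate 2. With 1 library left out, the Atp6v1a gene end ran from -0.157 to 0.0571 around -0.0347, with the sign turned without control replicate 4 and without paused replicate 3. With 1 library left out, the Lipa gene end ran from -0.0174 to 0.122 around 0.0468, with the sign turned without control replicate 1. With 1 library left out, the Gabarapl1 gene end ran from -0.139 to 0.0633 around -0.0495, with the sign turned without control replicate 4 and without paused replicate 2. Depth limits weak peaks, where 3 reads are worth 1.04 to 5.08.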
